A study of Mus musculus with 6 samples.

Results

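Genes of DNA replication and mitosis were examined in Treg, the mouse regulatory T cells isolated as CD4+CD25+ that hold other immune cells in check, with and without HDAC6. The gene set had 40 members fixed by name, of which 37 had a probe set carrying their name alone, among 12393 genes measured. Ccnb1, Gins2 and Cdca8 were not analysed here. Of the measured members 14 belong to the replication phase of the cell cycle and 23 to mitosis. Expression was profiled on 6 oligonucleotide arrays of 1 colour, 3 per genotype, described as independent samples. The knockout group was HDAC6 knock out, with no allele or strain named, and the control group was wild type of strain C57BL6. The cells of both groups had been separated magnetically, and neither group carries a treatment in the labels. The sources used here give no age, sex or stimulation, nor how many animals went into a sample. The p-values therefore measure the spread between these samples. HDAC6 is a mostly cytoplasmic deacetylase, and the study's title joins it with the chaperone HSP90 in the function of Foxp3+ Treg. Values are log2 signals of 1 probe set per gene, the brightest, and differences are knockout minus wild type on the log2 scale.

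A cell that commits to division first loads the MCM helicase, a ring of 6 related subunits, onto replication origins, then makes nucleotides and copies its DNA, and finally condenses, aligns and separates its chromosomes. Transcription of the first group of genes is classically tied to E2F factors and that of the second to the DREAM and MuvB complexes, which bind a promoter element called the CHR (cell cycle genes homology region), often together with CCAAT boxes bound by NF-Y. Most lymphocytes at rest hold both programmes low. Treg are known as a T cell subset with a sizeable dividing fraction in the unchallenged animal. In RNA from a bulk of cells, fewer dividing cells and less RNA per dividing cell cannot be told apart.

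Promoter sequences are shown for 7 members because the replication and mitotic members differed in the motifs near their starts and, as described further on, in how far they varied between arrays. The sequences run 5′ to 3′ on the gene's strand from 180 bases before to 30 bases after the RefSeq start (build GRCm38.p6). Capitals mark whole matches, on either strand, to an E2F motif (spelled TTCCCGC, alternatively TTCGCGC, alternatively TTGGCGC, alternatively TTGCCGC), a CHR motif (spelled TTTGAA, alternatively TTCGAA) or a CCAAT box (spelled CCAAT). Mcm6 encodes a subunit of the MCM helicase, Rrm1 the large subunit of ribonucleotide reductase and Cdc6 the loader of MCM at origins. Cdk1 encodes the mitotic cyclin-dependent kinase, Ccnb2 its partner cyclin B2, Ube2c the ubiquitin-conjugating enzyme of the anaphase-promoting complex and Cenpf a kinetochore protein.
Mcm6, chr1:128359676-128359885, minus strand: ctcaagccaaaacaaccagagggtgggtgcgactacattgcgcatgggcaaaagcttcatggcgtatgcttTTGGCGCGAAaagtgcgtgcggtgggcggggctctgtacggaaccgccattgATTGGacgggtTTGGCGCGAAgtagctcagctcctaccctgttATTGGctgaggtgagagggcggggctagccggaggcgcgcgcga
Rrm1, chr7:102441515-102441724, plus strand: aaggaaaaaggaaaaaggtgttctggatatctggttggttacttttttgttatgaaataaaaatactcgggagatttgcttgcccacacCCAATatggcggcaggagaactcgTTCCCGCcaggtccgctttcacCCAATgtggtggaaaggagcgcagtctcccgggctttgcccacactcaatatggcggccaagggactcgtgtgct
Cdc6, chr11:98907971-98908180, plus strand: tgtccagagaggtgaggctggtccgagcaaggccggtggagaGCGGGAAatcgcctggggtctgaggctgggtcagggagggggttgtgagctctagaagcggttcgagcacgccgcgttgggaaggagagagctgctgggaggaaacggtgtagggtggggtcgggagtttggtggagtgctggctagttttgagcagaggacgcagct
Cdk1, chr10:69352883-69353092, minus strand: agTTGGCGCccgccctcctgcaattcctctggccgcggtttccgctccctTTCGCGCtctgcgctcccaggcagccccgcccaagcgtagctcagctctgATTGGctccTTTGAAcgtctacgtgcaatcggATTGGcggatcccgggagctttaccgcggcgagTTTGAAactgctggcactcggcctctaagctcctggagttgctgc
Ccnb2, chr9:70421525-70421734, minus strand: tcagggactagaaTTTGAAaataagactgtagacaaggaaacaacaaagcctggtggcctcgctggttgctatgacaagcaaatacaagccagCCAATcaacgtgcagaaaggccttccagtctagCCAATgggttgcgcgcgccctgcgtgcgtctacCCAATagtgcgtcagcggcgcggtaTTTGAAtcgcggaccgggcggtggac
Ube2c, chr2:164769749-164769958, plus strand: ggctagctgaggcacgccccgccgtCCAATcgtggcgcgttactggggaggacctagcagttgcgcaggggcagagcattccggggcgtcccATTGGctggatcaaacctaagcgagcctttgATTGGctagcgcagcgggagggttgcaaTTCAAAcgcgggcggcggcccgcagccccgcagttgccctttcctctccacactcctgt
Cenpf, chr1:189688057-189688266, minus strand: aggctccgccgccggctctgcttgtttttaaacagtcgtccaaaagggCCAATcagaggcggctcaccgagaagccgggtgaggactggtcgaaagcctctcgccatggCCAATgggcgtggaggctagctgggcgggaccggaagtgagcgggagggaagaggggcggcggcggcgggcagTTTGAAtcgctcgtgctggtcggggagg

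In the Mcm6 stretch E2F matches overlap in pairs, TTGGCGC on the gene's strand with TTCGCGC on the other, from 109 and again from 46 bases before the start, with a CCAAT box on the other strand 57 and 14 bases before it. The Rrm1 stretch has 1 E2F match, 67 bases before the start, between CCAAT boxes, and the Cdc6 stretch has 1, at 138 bases. The Ccnb2 stretch shows the other layout: CCAAT boxes stand 87, 54 and 21 bases before the start, 1 CHR match begins at base 5 after it and another lies 167 bases before it. Ube2c has CCAAT boxes 155, 88 and 57 bases and a CHR match 29 bases before the start. Cenpf has CCAAT boxes 132 and 71 bases before the start and a CHR match from base 3. Cdk1 holds both kinds, with E2F matches 178 and 130 bases and CHR matches 71 and 15 bases before the start.

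Promoter windows of 300 bases (250 before to 50 after the start) were given for 31 of the 37 measured members, in 33 windows. The windows for Ccna2, Aurkb, Kif20a, Tpx2, Mcm4 and Ccne2 were not used here. CHR letters occurred in 17 of 20 mitotic windows (85.0%) and in 2 of 13 replication windows (15.4%), against 14.6% of 12566 windows of measured genes and 19.2% of all 32851 windows. E2F letters occurred in 9 of 13 replication windows (69.2%) and in 4 of 20 mitotic windows (20.0%), against 14.5% of the windows of measured genes and 9.57% of all. CCAAT letters were frequent in both, in 10 of 13 and 18 of 20 windows, against 37.1% and 37.4%. E2F and CCAAT letters overlapped in 1 member window, and CHR letters overlapped neither. The mitotic windows without CHR letters were those of Birc5, Nusap1 and Cenpe. The replication windows with them were those of Mcm2 and of Mcm7, 1 of its pair. These letters are matches in a window, not measured binding sites, and the members were chosen by role, so the shares are a description.

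**Figure D1:**
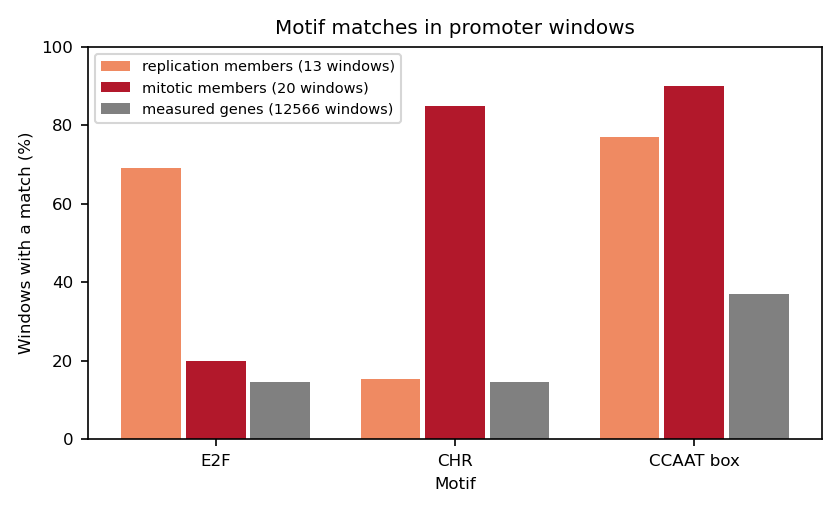
Share of promoter windows of 300 bases (y axis, percent) with at least 1 match to the E2F, CHR or CCAAT letters (x axis), for 13 replication windows, 20 mitotic windows and 12566 windows of all measured genes. E2F letters stand out in the replication windows (69.2%) and CHR letters in the mitotic windows (85.0%), while CCAAT letters are common in both.

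The cells' identity and the arrays' scale were checked first. The array medians lay between 6.22 and 6.27. Foxp3, which defines Treg, averaged 10.32 in the knockout and 10.26 in wild type, and the 6 Treg markers differed by -0.0017 to 0.20 with a median of 0.07. Markers of T cells in general, such as the Cd3 chains and Cd4, were bright in every array, with a mean of 11.55 to 11.68 over 6 of them. Hdac6 itself read 7.54, 7.86 and 7.64 in knockout arrays against 8.54, 8.23 and 8.42 in wild-type arrays, a difference of -0.71 with limma's adjusted p at 0.0862, which missed the threshold of 0.05. The sources used here do not place its probe set relative to the deletion, so it does not check the labels.

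Members were mostly higher in the knockout by small amounts, and none passed the test. Of the 37 members 33 were higher and 4 lower, with a median of 0.24 (35 were higher after quantile normalization, where Mcm4 and Pcna turned sign), where 50.7% of all genes were higher and the median was 0.0019. With limma, 0 members had an adjusted p under 0.05, and 1 member, Mcm6, had an unadjusted p under 0.05 (2.70% of the members). Over all genes 20 of 12393 (0.161%) passed, with 0.0565% passing as higher. An unadjusted p under 0.05 was found for 11.2% of all genes, 5.7% higher and 5.45% lower, so the share of members with a low p was below that of all genes. The count of 20 became 8 with knockout replicate 1 left out and 3 with either group's replicate 2 left out, and the count of members was 0 in each of these fits. Adjusted p-values of the members ran from 0.337 to 0.994. The 95% interval of the difference included 0 for 36 of 37 members, against 11011 of all 12393 genes. For 36 members it ended below 1 on the log2 scale, against 12236 of all 12393 genes. Ccne2 was the exception at the upper end, with an interval from -0.04 to 1.03.

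**Figure D2:**
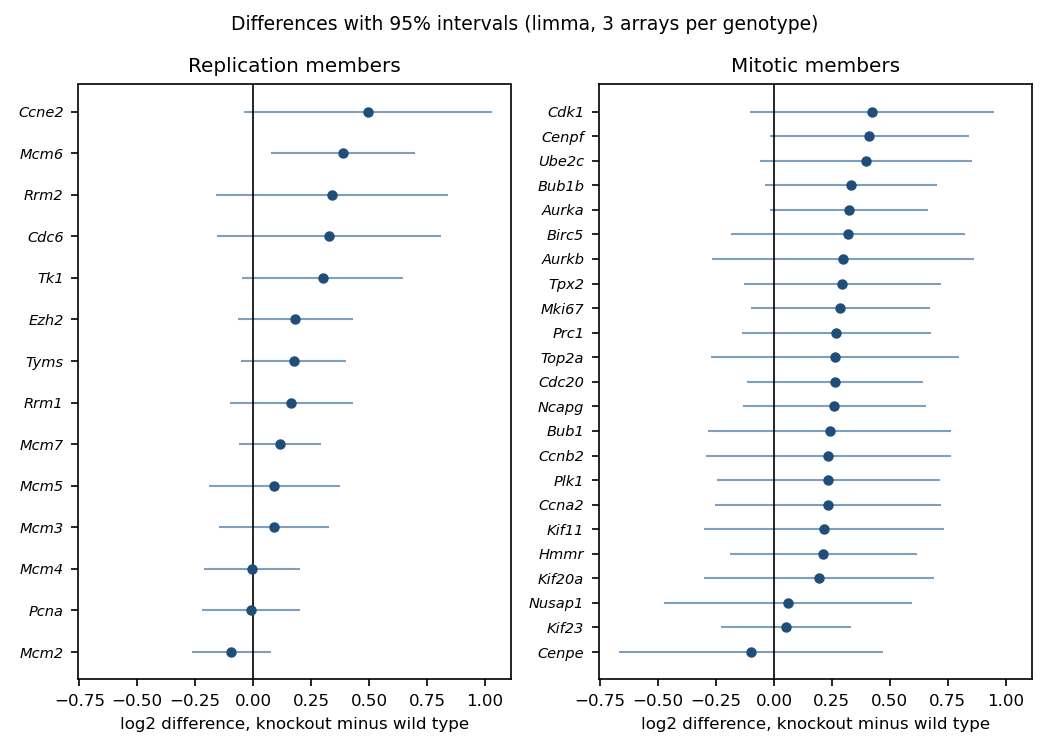
Log2 difference between knockout and wild type (x axis) for each of 14 replication members and 23 mitotic members (y axis), from limma on 3 arrays per genotype. Points are differences and bars 95% intervals. The points lie mostly to the right of 0, between -0.10 and 0.50, and the intervals of all but Mcm6 include 0.

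The members moved together from array to array, with knockout replicate 2 and wild type replicate 3 low within their genotypes. Knockout replicate 2 was the lowest knockout array for 37 of 37 members, which held for 28.6% of all genes. Wild type replicate 3 was the lowest wild-type array for 34 of 37 members, against 30.6% of all genes. Both held for 34 members (91.9%), against 10.6% of all genes. These orders were chosen after the values were seen. Averaged over the 37 members after centring each gene on its own mean, the arrays stood at 0.26, -0.13 and 0.21 in the knockout (SD 0.21, n = 3) and at 0.09, -0.02 and -0.40 in wild type (SD 0.26, n = 3). Over all genes the same means lay between -0.02 and 0.03. Knockout replicate 2 thus lay below wild type replicates 1 and 2 on average, and for 30 members it was below wild type replicate 2. The range among the 3 wild-type arrays was larger than the difference between genotypes for 35 of 37 members. The same held for 9682 of all 12393 genes.

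**Figure D3:**
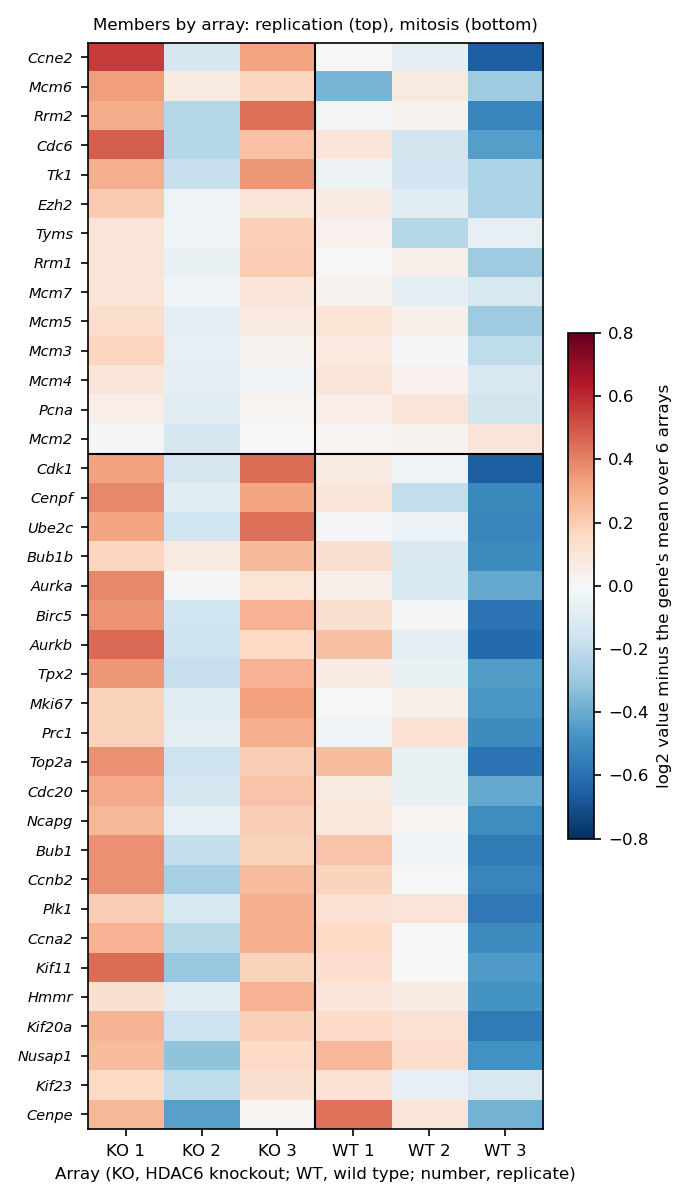
Log2 value of each member (rows, replication above and mitosis below the line) in each array (columns), shown as the deviation from that gene's mean over 6 arrays, red above and blue below. Knockout replicates 1 and 3 are red and wild type replicate 3 blue in nearly every row, while knockout replicate 2 is pale to blue like or below wild type replicates 1 and 2.

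Among the MCM subunits Mcm6 differed most between the genotypes, and the other 5 differed by -0.09 to 0.11. Mcm6 read 10.70, 10.44 and 10.54 in knockout arrays against 10.00, 10.44 and 10.08 in wild-type arrays. The lowest knockout array and the highest wild-type array were level to 2 decimals, so the separation of the genotypes was smaller than that rounding. The difference between genotypes was 0.39 (SE 0.13, 95% interval 0.08 to 0.70, adjusted p = 0.337 by limma), or 1.31-fold. A dimmer probe set of Mcm6 gave 0.39 as well, and there the genotypes overlapped.

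Mcm7, another subunit of the ring, read 11.03, 10.92 and 11.04 in knockout arrays against 10.97, 10.87 and 10.81 in wild-type arrays, and its 4 probe sets differed by 0.11 to 0.15. Mcm2 was the 1 member with every knockout array below every wild-type array, which held for 10.3% of all genes, at 9.16, 9.03 and 9.17 against 9.18, 9.19 and 9.27. Its difference of -0.09 (SE 0.07, adjusted p = 0.680) was small, and its dimmer probe set gave 0.08. Mcm4 read 10.04, 9.87 and 9.93 against 10.05, 9.98 and 9.82, a difference of -0.0032 that was 0.00035 after quantile normalization. Mcm3 and Mcm5 each differed by 0.09. Relative to the mean of the other 5 subunits in the same array, and to wild type, Mcm6 stood at 0.41, 0.32 and 0.31 in knockout arrays against -0.26, 0.24 and 0.02 in wild-type arrays. That difference of 0.35 gave p = 0.10 by an exact two-sided permutation test, the smallest p that 3 against 3 arrays allow, for a gene singled out after its values were seen. Mcm6 was also 1 of the 3 members, with Mcm2 and Tyms, in which wild type replicate 3 was not the lowest wild-type array.

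The replication clamp Pcna, on which DNA polymerases ride, differed by less than its spread within either genotype. It read 12.10, 11.96 and 12.07 in knockout arrays against 12.11, 12.16 and 11.90 in wild-type arrays, a difference of -0.0087 (SE 0.09) that was 0.0081 after quantile normalization. Its range over the 6 arrays was 0.25, among the narrowest of the members.

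The genes of nucleotide supply differed more from array to array. Rrm2, the small subunit of ribonucleotide reductase whose level limits the enzyme in cycling cells, read 9.93, 9.40 and 10.07 in knockout arrays against 9.62, 9.66 and 9.11 in wild-type arrays. The difference was 0.34 (SE 0.21), knockout replicate 2 lay below wild type replicates 1 and 2, and its other probe sets gave 0.49 and 0.25. Its partner Rrm1 differed by 0.17. Tk1, the thymidine kinase that salvages thymidine, read 8.31, 7.83 and 8.37 against 7.98, 7.87 and 7.77, with a difference of 0.30 (SE 0.15, adjusted p = 0.525). Tyms, thymidylate synthase, was dim, at 4.42, 4.29 and 4.52 against 4.36, 4.10 and 4.25, near the arrays' lower quartiles (4.14 to 4.25), and its dimmer probe sets gave -0.07 and -0.11.

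Ccne2, cyclin E2, which drives entry into the replication phase with CDK2, had the largest difference of the set but was also dim. It read 5.48, 4.79 and 5.24 in knockout arrays against 4.92, 4.85 and 4.26 in wild-type arrays, a difference of 0.50 (SE 0.23, adjusted p = 0.480), and the genotypes overlapped. Cdc6 differed by 0.33 (SE 0.20), with knockout replicate 2 at 6.62 and wild type replicate 1 at 6.94. Ezh2, the histone methyltransferase that is higher in dividing lymphocytes, read 9.88, 9.64 and 9.77 against 9.74, 9.59 and 9.43, a difference of 0.18 (SE 0.11).

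Of the mitotic members 22 were higher and 1 lower in the knockout, with a median of 0.26. Mki67, which encodes the Ki-67 antigen used to score dividing cells, read 9.97, 9.70 and 10.11 in knockout arrays against 9.78, 9.82 and 9.32 in wild-type arrays. Its difference of 0.29 (SE 0.16, adjusted p = 0.585) rested on knockout replicates 1 and 3 being high and wild type replicate 3 being low. Top2a, the topoisomerase that untangles sister DNA, read 9.55, 9.02 and 9.38 against 9.44, 9.13 and 8.60, a difference of 0.26 (SE 0.23). In Top2a wild type replicate 1 lay above knockout replicate 3.

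Kinases and cyclins of mitotic entry followed the same order. Cdk1 had the largest difference of the mitotic members, 0.42 (SE 0.22, 95% interval -0.11 to 0.95), and read 8.05, 7.59 and 8.17 in knockout arrays against 7.78, 7.69 and 7.07 in wild-type arrays. Its cyclin partners Ccna2 and Ccnb2 each differed by 0.23. Aurka, the spindle pole kinase, read 7.33, 6.94 and 7.06 against 6.99, 6.83 and 6.53, and its difference of 0.32 (SE 0.14, adjusted p = 0.469) came with 1 overlap, of knockout replicate 2 with wild type replicate 1. Aurkb, the kinase of the chromosomal passenger complex, and its partner Birc5 (survivin) differed by 0.30 and 0.32, and Plk1 by 0.23. Of these genes Aurkb had the widest spread within wild type, from 5.79 to 6.65.

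The spindle checkpoint and the anaphase-promoting complex, which hold back and then trigger chromosome separation, gave differences of 0.24 to 0.40. Bub1b, which encodes the checkpoint protein BubR1, read 6.94, 6.83 and 7.03 in knockout arrays against 6.89, 6.65 and 6.26 in wild-type arrays, a difference of 0.33 (SE 0.16, adjusted p = 0.499). Its knockout arrays lay within 0.19 of each other, the narrowest knockout range among the mitotic members. Bub1 differed by 0.24, and Cdc20, the activator of the complex, by 0.26. Ube2c read 9.45, 8.98 and 9.58 against 9.12, 9.09 and 8.61, a difference of 0.40 (SE 0.19, adjusted p = 0.522). Cenpf read 7.31, 6.84 and 7.24 against 7.02, 6.72 and 6.40, a difference of 0.41 (SE 0.18, adjusted p = 0.467), the smallest p of the mitotic members.

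The motors and spindle proteins included the lowest difference of the set. Tpx2, a spindle assembly factor, and Prc1, which bundles midzone microtubules, differed by 0.30 and 0.27, and the condensin subunit Ncapg by 0.26. The motors Kif11 and Kif20a differed by 0.22 and 0.20, and Hmmr by 0.21. Kif23, a motor of cytokinesis, and Nusap1, a spindle microtubule binder, stood at 0.05 and 0.06. Cenpe, the kinetochore motor, was the 1 mitotic member that was lower in the knockout, with values of 4.89, 4.19 and 4.64 against 5.06, 4.72 and 4.25. Its difference of -0.10 (SE 0.24) lay within the spread of both genotypes, and its signal was near the lower quartiles.

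In a comparison with no test, mitotic members had wider ranges from array to array than replication members, and Mcm2, Mcm4, Mcm7 and Pcna had the narrowest ranges. The range of a gene over the 6 arrays had a median of 0.83 for mitotic members (0.36 to 1.11), of 0.44 for replication members (0.23 to 1.22) and of 0.31 for the 6 MCM subunits, against 0.33 over all genes. In the list means the 6 arrays spanned 0.79 for mitotic members, 0.59 for the 8 replication members other than MCM and 0.29 for MCM. The mitotic means were 0.29, -0.16 and 0.24 in knockout arrays against 0.13, -0.0077 and -0.50 in wild-type arrays. The replication means were 0.21, -0.09 and 0.16 in knockout arrays against 0.01, -0.03 and -0.25 in wild-type arrays. The order of the arrays was therefore the same in both groups within each genotype. Split by the promoter letters, the 13 members with CHR but no E2F match had a median range of 0.85 and the 7 with E2F but no CHR match one of 0.49. All but 1 of the former (Mcm2) are mitotic and all of the latter are replication members, so in these classes letters and role cannot be told apart. The 5 members with both kinds of letters had a median range of 0.76 and the 6 with neither one of 0.68. The mitotic genes without CHR letters had ranges of 0.95 (Birc5), 0.87 (Cenpe) and 0.75 (Nusap1). Those with E2F beside CHR letters had ranges of 1.11 (Cdk1), 0.80 (Mki67), 0.76 (Ncapg) and 0.75 (Hmmr). The replication genes with CHR letters had ranges of 0.24 (Mcm2) and 0.23 (Mcm7, which also has E2F letters). Replication genes with neither kind had ranges of 0.60 (Tk1), 0.42 (Tyms) and 0.25 (Pcna). The groups also differed in signal level, with a median of 7.33 for mitotic members, 9.38 for replication members and 9.71 for MCM, against 6.84 over all genes. The part of letters, role or signal level in the ranges was not tested.

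The size of the members' difference depended on single arrays. Without wild type replicate 3 the median over the members was 0.08 and 30 of 37 were higher, and without knockout replicate 2 it was 0.40 and 36 were higher. Leaving out wild type replicate 1 gave a median of 0.35, and weighting the arrays by their quality in limma gave 0.14. The mitotic median moved to 0.06 and 0.40 in the same fits, and the replication median was 0.09 without wild type replicate 3. On the members' means knockout replicate 1 was the highest array and wild type replicate 3 the lowest, at 0.26 and -0.40. Leaving out both therefore lowers the difference by construction. With both out the median was 0.02 and 21 of 37 members were higher, where 54.9% of all genes were. Of the 37 members 1 (Mcm6, 2.70%) had every knockout array above every wild-type array, against 8.28% of all genes. Leaving out knockout replicate 2 raised that count to 27 (12.4% of all genes), and leaving out wild type replicate 1 gave 7 (11.9%). In the fit without knockout replicate 2, 11 members had an unadjusted p under 0.05 (8.89% of all genes did) and 0 passed the adjusted threshold. Knockout replicate 2 was the lowest knockout array for 37 of 37 members, and wild type replicate 1 the highest wild-type array for 30 of 37. Leaving out either therefore raises the difference and the count without overlap by construction, and the 11 members come from such a fit.

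**Figure D4:**
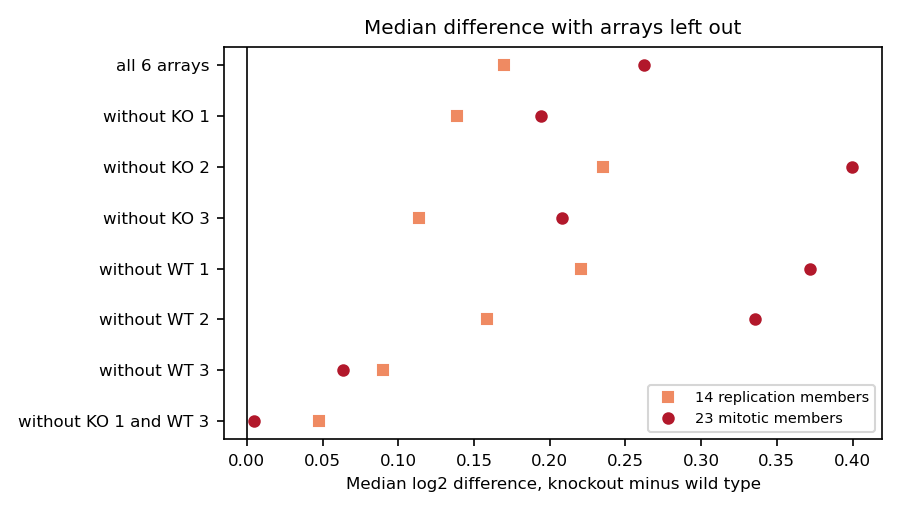
Median log2 difference between knockout and wild type (x axis) over 14 replication and 23 mitotic members with all arrays, with each array left out, and with knockout replicate 1 and wild type replicate 3 both left out (y axis). The mitotic median ranges from 0.06 to 0.40 with 1 array out and is 0.0048 with both out. These were the members' highest and lowest arrays, so leaving out both lowers the median by construction. Leaving out knockout replicate 2, their lowest knockout array, raises it by construction.

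The rest of the cell cycle machinery was read from lists that share no gene with the members. Of 44 measured spindle, kinetochore and chromosome genes 37 were higher and 7 lower, with a median of 0.14, and 39 of 44 showed both array orders of the members (88.6%, against 10.6% of all genes). In that list 0 passed limma's threshold and 4 had an unadjusted p under 0.05 (9.09%, against 11.2% of all genes). These were Ncapg2 (0.33), Cdc25c (0.23) and Cenpk (0.27), all higher, and Pttg1, the separase inhibitor securin. Pttg1 went against the list at -0.69 (SE 0.18, adjusted p = 0.210), with 10.45, 10.33 and 10.67 in the knockout against 11.11, 11.53 and 10.86. Of 39 origin licensing and replisome genes 23 were higher and 16 lower, with a median of 0.02, 0 passed and 0 had an unadjusted p under 0.05. In this list 19 showed both orders (48.7%), and the smallest p-values were those of Fen1 (0.17), Pold2 (-0.17), Gins4 (-0.29) and Cdc7 (-0.18).

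Upstream regulators were split in direction. Of 26 regulators of replication and mitotic entry 14 were higher and 12 lower, 0 passed limma's threshold and 4 had an unadjusted p under 0.05 (15.4%, against 11.2% of all genes). E2f1 differed by 0.31 and cyclin D3 (Ccnd3) by 0.26, while E2f5 and E2f6 differed by -0.34 and -0.19, each without overlap between the genotypes. Other E2F genes were higher, among them E2f4 (0.19, without overlap) and E2f8 (0.33, with overlap). In this list 5 of 26 genes were higher without overlap (19.2%, against 8.28% of all genes) and 2 were lower (10.3% of all genes were). Foxm1, the mitotic activator, stood at -0.08, Ccnd2 at 0.14 and Myc at -0.31. Of 13 CDK inhibitors and antiproliferative genes 10 were higher and 3 lower, 0 passed and 5 had an unadjusted p under 0.05 (38.5%, against 11.2% of all genes), among them Cdkn2c, which encodes the inhibitor p18, at 0.34 (SE 0.08), Ccng2 (0.30), Btg2 (0.32) and Tob1 (-0.25). Cdkn1a differed by 0.21 and Cdkn1b by 0.05. The inhibitors showed both array orders of the members in 2 of 13 cases (15.4%). Of 15 fork checkpoint and repair genes 10 were higher and 5 lower, 0 passed and 1 had an unadjusted p under 0.05, Atr at -0.28 (6.67%, against 11.2% of all genes). Next by p were Atm (0.72, with wild type replicate 2 the lowest array at 6.90), Rad51ap1 (0.19) and Fanci (0.10).

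Markers of other cell types were set beside the members. Plasma cell markers were higher in 9 of 9 measured cases, with a median of 0.40. Of these markers 0 passed limma's threshold (smallest adjusted p = 0.199), and 6 had an unadjusted p under 0.05 (66.7%, against 11.2% of all genes). Every knockout array was above every wild-type array for 6 of them (66.7%, against 8.28% of all genes). The summed linear level of the plasma cell markers ran from 16051 to 18515 in the knockout and from 9872 to 12935 in wild type. Such a sum mostly follows the brightest gene of its list, here Jchain, with log2 means of 13.64 in the knockout and 13.06 in wild type. Knockout replicate 2 was the lowest knockout array for 9 of 9 of them, as for the members, but wild type replicate 3 was the lowest wild-type array for 2 of 9, and wild type replicate 1, where the members were highest among wild type in 30 of 37 cases, had the lowest sum. Of 9 B cell markers 5 were higher, by 0.04 to 0.29, and 4 lower, by -0.32 to -1.13, with Ms4a1 (-1.13) and Spib (-0.94) the lowest. Of them 0 passed limma's threshold, and their sums were 1329 to 1816 against 1711 to 2292. The 3 measured germinal centre markers were dim, with sums of 66.96 to 77.5 against 63.8 to 71.4. The 4 erythroid markers, of which Gata1 was the brightest, summed to 221 to 251 against 246 to 306. Myeloid and dendritic markers were higher in 3 of 12 cases, with sums of 3502 to 4844 against 4113 to 6081. CD8 T cell markers were higher in 1 of 2 (151 to 163 against 172 to 196) and NK markers in 0 of 2 (36.5 to 61.9 against 41.3 to 63.2). The CD8 sum follows the brighter Cd8b1, which differed by -0.37, while Cd8a differed by 0.25, and 0 of the 2 passed limma's threshold. The part of these cell types in the members' levels was not tested.

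**Figure D5:**
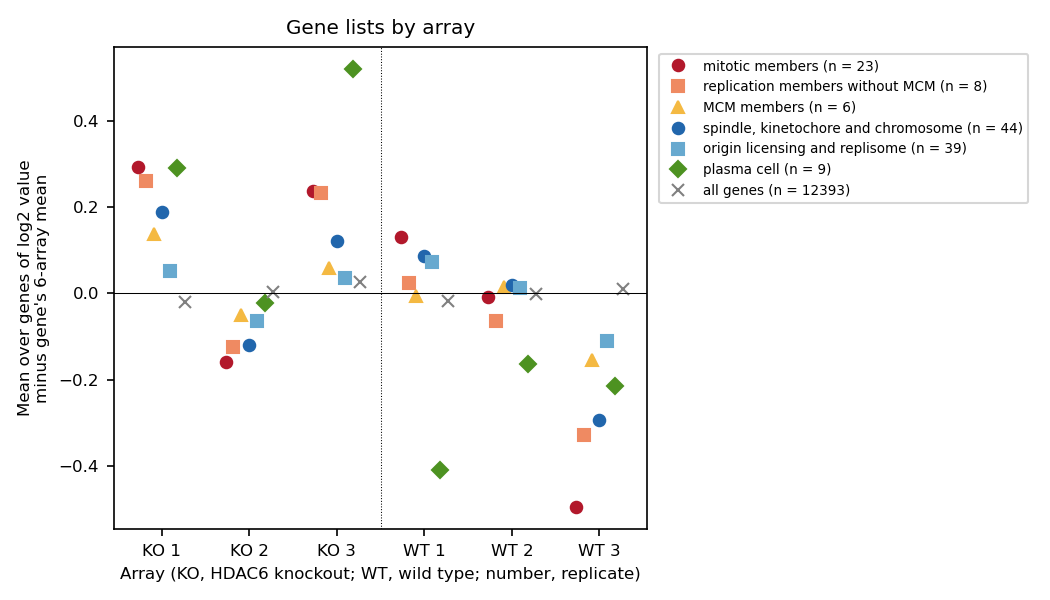
Mean over the genes of a list of the log2 value minus each gene's own mean (y axis) in each array (x axis), for the mitotic members, the replication members other than MCM, the MCM members, 2 lists of other cell cycle genes, the plasma cell markers and all genes. The mitotic members span from -0.50 to 0.29 and the spindle list follows them, all genes stay near 0, and the plasma cell markers share the low knockout replicate 2 but are lowest in wild type replicate 1.

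Where a gene had several probe sets they did not always point the same way. The 37 members had 70 probe sets, of which 58 were higher in the knockout and 0 passed limma's threshold over all probe sets (smallest adjusted p = 0.186), with 3 at an unadjusted p under 0.05. Of the 33 that were not their gene's brightest, 23 had the sign of the brightest and 10 the opposite sign. Apart from Mcm6, those with a low p were dimmer ones of Bub1 (0.37) and Kif23 (-0.27).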

How the data were processed

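The authors deposited 1 table of log2 values for 22690 probe sets on 6 arrays. Per the submitters' processing notes they came from RMA (background correction, normalization between arrays and summary per probe set), with no version given, and the log2 scale was taken from their range. RMA compresses differences of dim probe sets. After 64 control probe sets were left out, limma 3.58.1 in R 4.3.3 (lmFit, eBayes, genotype as the only term) was run on 22626 probe sets and tested on simulated data. Each gene was read from its brightest probe set with 1 gene name (platform annotation, updated through gene IDs found in RefSeq for 20351 of 20380), and p-values were Benjamini-Hochberg adjusted over 12393 genes. All are two-sided. Precision is limited by there being 3 arrays per genotype, and the standard error of a difference had a median of 0.09.

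The members and lists were chosen with earlier results of these data known, so no test over a list was made. Values are given per array for the members with the smallest p, the brightest and dimmest, those lower in the knockout, Mki67, Top2a and Pcna. Those of Cdk1, Rrm2, Tk1, Ezh2 and Pttg1, and single arrays of Cdc6, Aurkb and Atm, were added after their values were seen. Some cell type markers are not reported here. In the other lists the 4 genes with the smallest p and a fixed few were named. E2f4 and E2f8 were added after their values were seen. Motif letters were searched in the RefSeq promoter windows. The fit was repeated with the replicate number as a block, after quantile normalization or centring on array medians, with array weights, and with eBayes set to trend and robust. It was also repeated on the upper 60% of probe sets, with a gene read as the mean of its probe sets or from the most variable one, at a threshold of 0.1, and with arrays left out. Figures used matplotlib 3.10.9 in Python 3.11.15.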

Additional observations from a re-analysis of the deposited data

How the results depend on the processing

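Over 15 other fits 0 member values passed the threshold (smallest adjusted p = 0.217), and 20 of 37 members kept their sign in every one. Pairing of the samples by replicate number was not shown, and a check on 3 arrays per genotype cannot exclude it. Deviations of same-numbered arrays correlated at 0.21, -0.10 and 0.02, and those of other pairs at -0.19 to 0.17. Not every array correlated best with its own number. With the replicate block 14 genes and 0 members passed. The 20 genes called became 83 with trend and robust settings, 34 with the probe set of highest variance and 71 at an adjusted p under 0.1. With 1 array left out they ranged from 3 to 27, the members without overlap from 1 to 27, the members higher in the knockout from 30 to 36, and the median difference from 0.08 to 0.40 (replication 0.09 to 0.24, mitosis 0.06 to 0.40). In those fits 11.6% to 16.5% of all genes were higher in the knockout without overlap. The upper ends of 27 members without overlap and 0.40 came from leaving out knockout replicate 2, which raises both by construction. Leaving out both knockout replicate 1 and wild type replicate 3, the members' highest and lowest arrays, 3 genes were called and 21 members were higher. Members without overlap numbered 3 with quantile normalization (8.88% of all genes). They numbered 0 with the mean over a gene's probe sets (7.93% of all genes) and with the most variable one (8.11%). With quantile normalization the sign turned for Mcm4 (0.00035) and Pcna (0.0081). With the mean over probe sets the sign turned for Kif23 (-0.057), Nusap1 (-0.0036), Tyms (-0.0035) and Mcm4 (0.046). With the most variable probe set the sign turned for Mcm2 (0.075), Mcm3 (-0.044) and Mcm4 (0.095). With array weights the sign turned for Kif23 (-0.022) and Nusap1 (-0.093). Over the fits with arrays left out, differences that turned ranged as follows: Kif23 from -0.064 to 0.17, Nusap1 from -0.28 to 0.24, Cenpe from -0.47 to 0.091, Mcm4 from -0.12 to 0.046, Pcna from -0.11 to 0.041, Kif20a from -0.12 to 0.33, Mcm5 from -0.078 to 0.17, Top2a from -0.082 to 0.46, Ccnb2 from -0.10 to 0.42, Ccna2 from -0.045 to 0.40, Aurkb from -0.088 to 0.49, Bub1 from -0.10 to 0.41, Plk1 from -0.032 to 0.36, Kif11 from -0.13 to 0.42 and Mcm3 from -0.054 to 0.15. The cause of these moves was not tested.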
